A study of Rattus norvegicus with 71 samples.

Results

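The data compared here are whole-lung transcript levels of Fisher rats at postnatal day 7 (PN7) and postnatal day 1 (PN1), both after saline exposure in utero. All Fisher saline arrays of these 2 ages were taken: 3 arrays at PN7 and 4 at PN1, 7 of the 71 arrays of the series. The full set covers 3 strains (Fisher, Lewis and Brown Norway), 3 ages and in utero saline or ovalbumin, an egg-white protein used as an allergen, in 18 groups. Each array carries 22523 probes for rat transcripts, and 14019 probes, detected on at least 3 of the 71 arrays, were tested. Of these, 9848 have a gene symbol and stand for 9642 genes, and 4171 have none. The label gives whole lung with no dissection or cell sorting, so every value is a mean over all cell types. In such bulk tissue fewer cells of a type and less RNA per cell cannot be told apart. The labels do not say whether replicates a to d came from separate animals, so p-values measure a spread between arrays. That spread is pooled over the 18 groups of the series and is not taken from these 7 arrays alone.

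The rat lung is born at the saccular stage, with wide airspaces and thick walls, and forms most of its alveoli after birth. During that time fibroblasts lay down elastic fibres, the capillary bed grows, surfactant-producing type 2 cells line the new surface, and macrophages settle in the airspaces. The newborn rat also still makes red blood cells outside the bone marrow, mainly in liver and spleen. The comparison asks which transcripts change in the Fisher lung across this week of growth, and whether the step is the same in the other strains and after allergen exposure.

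The tissue label was checked against marker genes. Sftpc, the surfactant protein of type 2 cells, was at 14.69 to 14.89 (normalized log2 intensity, the scale of every level below) on the PN1 arrays and at 14.86 to 15.23 at PN7, and Scgb1a1, the secretory protein of club cells, was at 15.47 to 15.64 and 15.32 to 15.51. The probe for the alpha-globin gene Hba-a3 was at 4.49 to 4.89 and 4.64 to 5.78 on the Fisher saline arrays. At PN1 it was at 10.46 to 12.62 in Lewis and 10.81 to 12.58 in Brown Norway. The lowest detected signal of the 7 Fisher arrays was 5.58 to 5.94, so the probe was near or below background on them. Its difference between strains was not tested.

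One array stood apart from its group. A developmental index was built from 1430 probes, on which 0 is the PN1 mean and 1 the PN14 (postnatal day 14) mean of the Lewis and Brown Norway saline arrays. The PN1 arrays lay at 0.245, 0.392, 0.379 and 0.374 (a to d), and PN7 a and b at 0.765 and 0.802. The array labelled PN7 replicate c lay at 0.110, below every Fisher saline PN1 array, and it was on slide 3, while PN7 a and b were on slide 4 and the PN1 arrays on slides 1 and 2. Over all tested probes the same array still correlated more closely with the other Fisher PN7 saline arrays (mean 0.970) than with the PN1 ones (mean 0.955). Its mean with the Fisher PN7 ovalbumin arrays was also 0.970. The closest single array was PN7 ovalbumin c (0.979, against 0.973 for PN7 saline a), so the correlation does not tell the 2 exposures apart. Genes that fall steeply after birth were high on it. The embryonic globin Hbe1 was at 11.56 there against 4.86 and 4.94 on PN7 a and b and 6.65 to 8.96 at PN1, and Dlk1, a secreted and membrane regulator of fetal growth, was at 13.61 against 8.86, 7.61 and 11.12 to 11.49. These 2 genes were chosen after their values were seen. Results that rest on this array are therefore given with and without it.

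**Figure D1:**
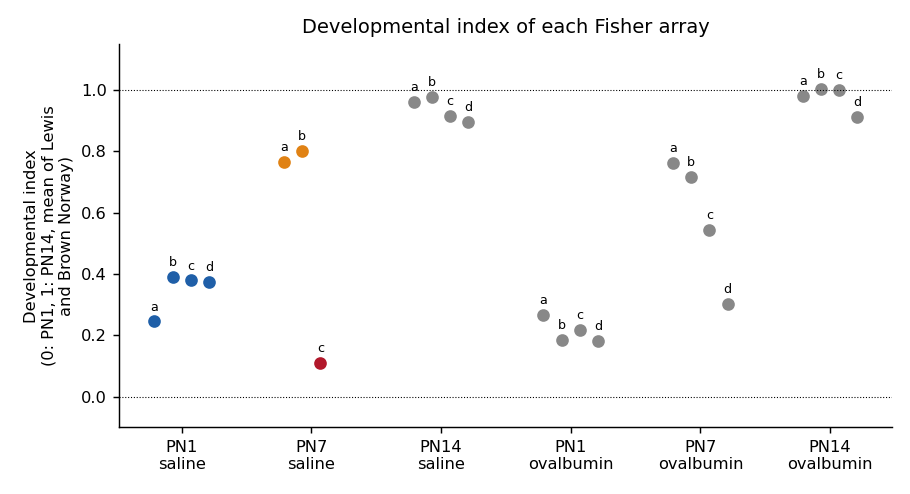
Developmental index of each Fisher array, where 0 and 1 (dotted lines) are the PN1 and PN14 means of the Lewis and Brown Norway saline arrays; each point is 1 array, with its replicate letter. PN7 saline a and b lie at 0.765 and 0.802, PN1 saline at 0.245 to 0.392 and PN7 saline c at 0.110, while PN7 ovalbumin arrays spread from 0.303 to 0.763.

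Transcripts of liver and of striated muscle also differed between arrays. The mean level of 8 liver genes was 11.83 on PN1 a, 5.98 to 6.77 on the other PN1 arrays and 6.09 to 8.27 at PN7. The mean of 12 heart and skeletal muscle genes was 9.72 on PN1 a and 10.63 on PN1 d, 8.25 and 8.68 on the other 2, and 8.35 to 10.76 at PN7. No liver or muscle gene was called between the ages, and the part of these tissues in other results was not tested. Between 10497 (PN7 c) and 11613 (PN1 b) of the probes were detected per array.

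**Figure D2:**
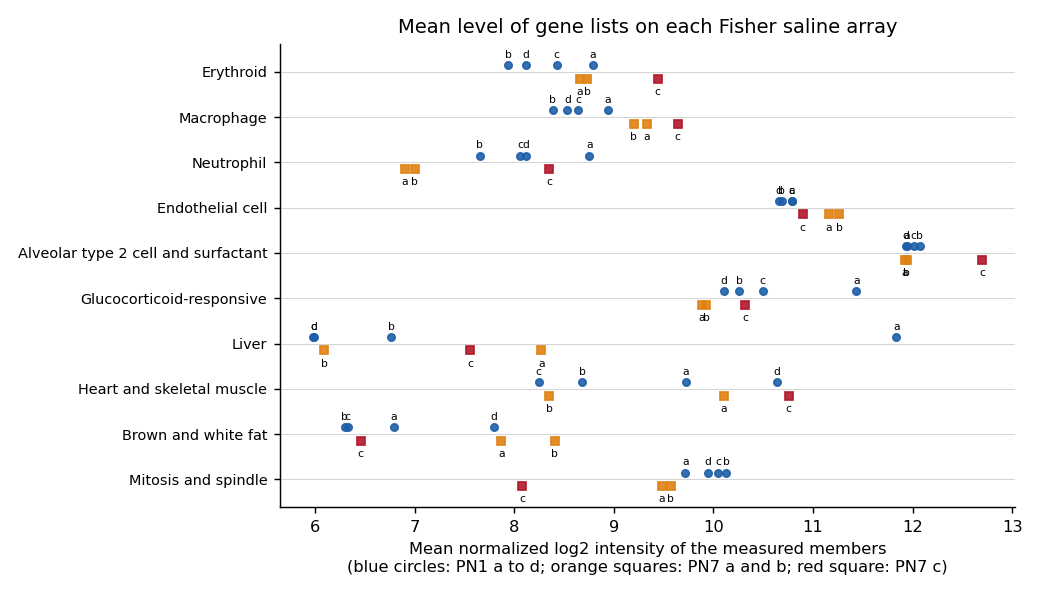
Mean normalized log2 intensity of the measured members of 10 gene lists on each Fisher saline array (blue circles PN1, orange squares PN7 a and b, red square PN7 c, letters the replicates). PN1 a is apart for liver (11.83), and for mitosis PN7 a, b and c lie at 9.48, 9.57 and 8.08, all below the PN1 arrays (9.72 to 10.13).

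Between PN1 and PN7, 3913 probes (27.9%) passed an adjusted p of 0.05, which is what called means below, with 1918 higher (13.7%) and 1995 lower (14.2%) at PN7, and the median over all tested probes was 0.03 on the log2 scale. Without PN7 c, 2650 probes were called (18.9%; 1362 higher, 9.72%, and 1288 lower, 9.19%). With slide as a term in the fit 28.7% were called (13.3% higher, 15.5% lower), and the arrays of the ages did not overlap for 34.6% of probes. Of the 2853 genes called with all 7 arrays, 1726 (60.5%) were also called in the same direction without it, and none changed sign. The 1726 are 87.2% of the 1979 genes called without it.

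The promoters of 3 genes that fell are shown here: Cxcl1, the largest fall, and Cks2 and Kif23, 2 genes of cell division whose step differed between strains. Each run is the 250 bases upstream of the annotated start in RefSeq (build GRCr8), 5′ to 3′ on the gene's strand. Matches on either strand to the motifs searched in that gene are in capitals. The motif searched in Cxcl1 (chr14:17479322-17479571, minus strand) was the consensus bound by NF-kB, a factor of inflammatory signalling. In Cks2 (chr17:13727520-13727769, minus strand) and Kif23 (chr8:71320585-71320834, minus strand) it was CCAAT, the CCAAT box, and TTTGAA, the core of the cell cycle genes homology region.
Cxcl1: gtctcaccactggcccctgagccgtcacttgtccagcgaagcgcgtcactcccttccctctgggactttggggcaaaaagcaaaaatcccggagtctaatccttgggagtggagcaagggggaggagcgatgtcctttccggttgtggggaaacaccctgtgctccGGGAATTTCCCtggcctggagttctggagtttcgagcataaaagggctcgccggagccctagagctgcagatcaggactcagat
Cks2: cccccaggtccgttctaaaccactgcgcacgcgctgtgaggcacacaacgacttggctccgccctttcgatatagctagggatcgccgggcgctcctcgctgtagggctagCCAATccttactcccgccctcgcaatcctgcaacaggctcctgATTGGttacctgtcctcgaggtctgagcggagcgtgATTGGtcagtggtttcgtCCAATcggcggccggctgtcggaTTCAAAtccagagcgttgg
Kif23: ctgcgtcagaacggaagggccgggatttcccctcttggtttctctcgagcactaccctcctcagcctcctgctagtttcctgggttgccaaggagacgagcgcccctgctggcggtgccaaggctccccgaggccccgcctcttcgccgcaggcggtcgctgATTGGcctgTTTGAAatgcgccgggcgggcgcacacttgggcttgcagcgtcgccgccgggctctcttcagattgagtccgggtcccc
The window of Cxcl1 holds the NF-kB consensus on both strands, overlapping itself. At least 1 match on either strand is held by 3.52% of all 27457 RefSeq windows of this length. The share is 4.26% for the windows of tested genes, and 4 of the 18 chemokine and cytokine windows hold a match. The windows of Cks2 and Kif23 hold both cell cycle motifs. The Kif23 window also holds a match to the NF-kB consensus, left in lower case because that motif was not marked there. Of the 26 measured genes of mitosis, 21 have a window, and 16 of these hold CCAAT (76.2%, against 34.3% of all windows). TTTGAA is held by 9 of the 21 (42.9%, against 4402 of the 27457 windows) and the NF-kB consensus by 1 (4.76%). A match describes these letters only and is no evidence of binding.

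The largest rises were of a lipoxygenase and of red-cell genes. The largest rises and falls were taken only from genes whose arrays did not overlap between the ages, so that separation is part of how they were chosen. Alox15, a lipoxygenase of macrophages and maturing red cells, was at 10.46, 8.59, 9.96 and 10.40 on PN1 a to d and at 14.53, 14.44 and 10.72 on PN7 a to c. The PN7 arrays lay above every PN1 array, although PN7 c did so by little. The rise was 3.38 ± 0.57 (SE) on the log2 scale (adjusted p = 1.45e-05), or 10.4-fold, and 4.63 without PN7 c. Alox15 also rose in Lewis (4.93) and Brown Norway (2.68). Its mean level at PN7 was 13.21 in Lewis and 12.88 in Brown Norway, against 13.23 ± 2.17 (SD, n = 3) in Fisher.

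Lgals5, a galectin known from rat reticulocytes, was at 7.60, 5.99, 7.10 and 6.72 at PN1 and at 9.88, 9.52 and 9.08 at PN7, a rise of 2.64 ± 0.49 (adjusted p = 5.86e-05). Add2, the beta-adducin of the red-cell membrane skeleton, was at 7.46, 6.05, 7.01 and 6.93 and then at 9.60, 9.59 and 8.92, a rise of 2.51 ± 0.44 (adjusted p = 2.32e-05). PN7 c was the lowest PN7 array for both genes. Alas2, which starts heme synthesis in red-cell precursors, was at 8.62, 6.53, 8.17 and 7.68 and then at 9.70, 9.71 and 10.05, a rise of 2.07 ± 0.54 (adjusted p = 0.00289). Fech, ferrochelatase, which inserts iron into heme, was at 9.18 to 9.77 and then at 10.84 to 11.52, a rise of 1.72 ± 0.25 (adjusted p = 1.19e-06). PN1 b was the lowest array for all 4 of these genes.

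Among the other 7 of the 12 largest rises, Rhd, a red-cell blood group protein, rose by 1.76 ± 0.44, and Tspan33, a tetraspanin known from mouse erythroid cells, by 2.17 ± 0.37. Rbm38, an RNA-binding protein, rose by 2.08 ± 0.37, Cdc25b, a phosphatase that activates cyclin-dependent kinases, by 2.14 ± 0.46, and Cd52, a surface glycoprotein of leukocytes, by 1.86 ± 0.49. Ccl19, a chemokine that draws cells bearing Ccr7, was at 5.89 to 6.51 at PN1 and at 9.03, 9.09 and 6.72 at PN7, a rise of 2.05 ± 0.61 (adjusted p = 0.0082). With slide as a term in the fit the Ccl19 difference was 1.27 (adjusted p = 0.2), and the other 11 stayed called. Apoe, the apolipoprotein made by macrophages and liver, rose by 1.88 ± 0.29 from 9.90 to 11.44 at PN1 to 12.10 to 12.72 at PN7. PN1 a, the array with high liver genes, was the highest PN1 array for it.

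All 12 largest rises were called without PN7 c, and 11 of the 12 were called higher in the Fisher ovalbumin arrays (background 14.6% of probes), where Ccl19 was not. In Lewis 6 of the 12 were called higher (background 14.4%) and in Brown Norway 3 (background 19.8%), with Apoe lower there (background 19.2%). The step from PN7 to PN14 uses the same PN7 arrays, so its values are only set beside these: it was -1.56 for Alas2, -1.96 for Cd52 and -1.82 for Tspan33.

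**Figure D3:**
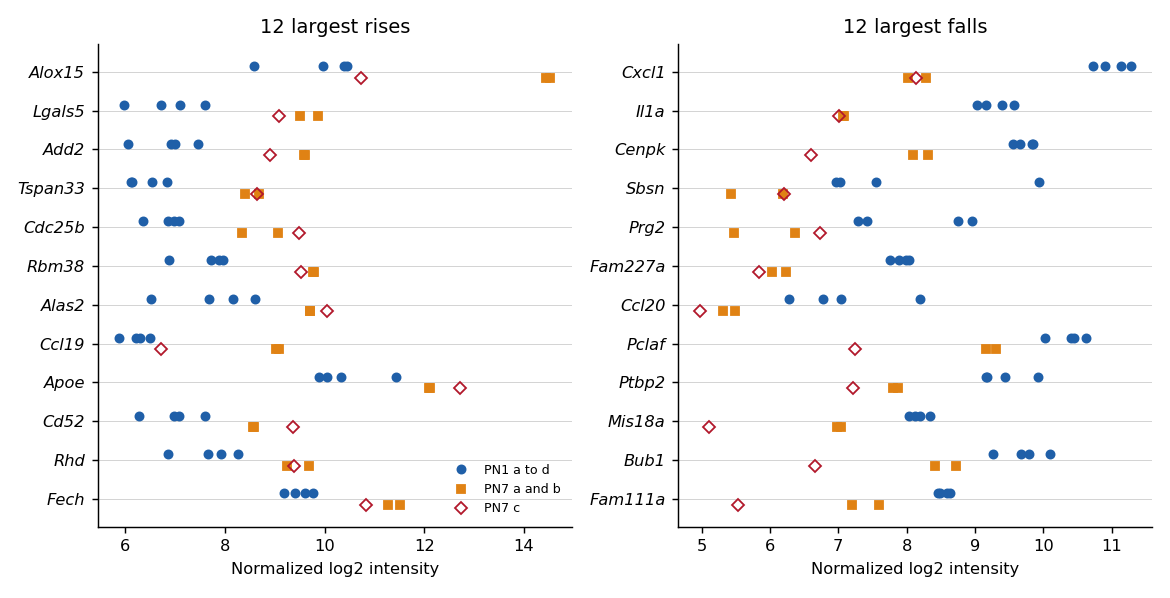
Normalized log2 intensity of the 12 largest rises (left) and 12 largest falls (right) on each array (blue circles PN1 a to d, orange squares PN7 a and b, open red diamonds PN7 c). PN7 c lies with PN7 a and b for Cxcl1 and Il1a, near the PN1 arrays for Alox15 and Ccl19, and below PN7 a and b for Bub1, Pclaf, Mis18a and Fam111a.

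The largest falls were of inflammatory signals and of genes of cell division. Cxcl1, a chemokine that attracts neutrophils, was at 11.28, 10.73, 10.90 and 11.14 on PN1 a to d and at 8.28, 8.02 and 8.14 on PN7 a to c. The groups were far apart and PN7 c lay between the other 2. The fall was -2.86 ± 0.39 (adjusted p = 2.85e-07), a 7.28-fold difference, and it was the same without PN7 c. Il1a, interleukin-1 alpha, an alarm cytokine, was at 9.16, 9.03, 9.58 and 9.40 and then at 7.07, 7.08 and 7.01. It fell by 2.24 ± 0.36 (adjusted p = 8e-06), and its 3 PN7 arrays were close together.

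Ccl20, which attracts cells bearing Ccr6, was at 8.19, 6.78, 7.04 and 6.28 at PN1 and was not well above background on any PN7 array, a difference of at least 2.45-fold (adjusted p = 3.93e-06). That bound sets the PN1 mean against the lowest detected signal of each PN7 array. Prg2, the major basic protein of eosinophil granules, was at 8.95, 8.75, 7.28 and 7.42 and then at 5.48, 6.36 and 6.73, a fall of 1.91 ± 0.41. Ptbp2, a regulator of splicing, was at 9.17 to 9.92 and then at 7.22 to 7.87, and fell by 1.79 ± 0.24.

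The other falls were of Cenpk (-2.06), Mis18a (-1.79) and Bub1 (-1.77), which serve the centromere and the spindle checkpoint, of Pclaf (-1.80) and Fam111a (-1.76), which act with the replication clamp, and of Sbsn (-1.93), an epidermal protein, and Fam227a (-1.88). The cell division genes were lowest on PN7 c. Bub1 was at 9.27, 10.09, 9.79 and 9.68 at PN1 and at 8.42, 8.72 and 6.66 at PN7, and its difference was -1.13 without PN7 c (adjusted p = 0.13). Pclaf and Fam111a were not called without it either (adjusted p = 0.15 and 0.079), and Sbsn was not called with slide as a term (adjusted p = 0.07). The other 9 falls stayed called without PN7 c. In Fisher ovalbumin lung 11 of the 12 were called lower (background 16.5%), and Ccl20 was not. In Lewis 1 of the 12 was lower and 2 higher (backgrounds 14.5% and 14.4%), and in Brown Norway 6 were lower and 4 higher (backgrounds 19.2% and 19.8%).

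Genes of cell division set the Fisher step apart from the other strains. Of 26 measured genes of mitosis and the spindle, none was called higher and 14 lower in Fisher (median -0.92, background 14.2% lower). Without PN7 c only 3 were lower, Aurkb, Cks2 and Kif23 (median -0.43, background 9.19%). In Lewis 24 of the 26 were higher and 1 lower (median 1.53; backgrounds 14.4% and 14.5%), and in Brown Norway 25 higher and 1 lower (median 1.72; backgrounds 19.8% higher and 19.2% lower). The difference between the Fisher and Lewis steps was called for 25 of the 26, each lower in Fisher (background 7.03%), and for 21 without PN7 c (background 3.30%). Against Brown Norway it was called for 25 (background 13.8%) and for 24 without PN7 c (background 9.24%). The genes of this list move together in dividing cells, so their count is not one of independent results.

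The levels show where the steps part. The mean level of the 26 genes was 9.72 to 10.13 on the Fisher PN1 saline arrays. On the PN1 saline arrays of Lewis it was 7.94 to 8.32, and on those of Brown Norway 7.97, 7.79, 7.995 and 7.89. At PN7 it was 9.48, 9.57 and 8.08 on Fisher a to c, 9.07 to 9.76 in Lewis and 9.50 to 9.70 in Brown Norway. The Fisher PN1 saline arrays thus lay above all PN1 saline arrays of the other strains, and Fisher PN7 a and b lay within the Lewis range. The Fisher PN1 ovalbumin arrays were at 8.01 to 8.67, below the PN1 saline arrays without overlap, and the PN7 ovalbumin arrays were at 9.25, 9.36, 7.63 and 7.08. Of the latter, 2 arrays lay below PN7 saline c, and the ovalbumin step had 3 of 26 genes higher and 3 lower (median 0.04). The saline to ovalbumin difference at PN1 was not tested by itself here.

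Kif11, a motor that separates the spindle poles, was at 10.75, 11.26, 11.07 and 10.99 on the Fisher PN1 arrays and at 10.28, 10.38 and 8.17 at PN7. Its means were 8.66 ± 0.35 (SD, n = 4) and 10.51 ± 0.37 in Lewis and 8.34 ± 0.14 and 10.23 ± 0.20 in Brown Norway. The Fisher step was lower than the Lewis step by -3.26 ± 0.61 (adjusted p = 0.000162) and than the Brown Norway step by -3.30 ± 0.61 (adjusted p = 3.73e-05). Without PN7 c these were -2.54 (adjusted p = 0.00621) and -2.58 (adjusted p = 0.00178).

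Cks2, a small subunit bound to cyclin-dependent kinases, was at 11.49, 11.66, 11.80 and 11.82 and then at 10.69, 10.62 and 9.26. It fell 2.83-fold in Fisher (adjusted p = 0.000724) and rose by 1.02 in Lewis and by 1.22 in Brown Norway. Kif23, a motor of cytokinesis, was at 10.37 to 10.86 and then at 9.25 to 10.03 in Fisher, a fall of 0.95 ± 0.22, and rose by 0.54 in Lewis and 0.91 in Brown Norway. For both genes the groups were separate, and the fall was called without PN7 c (-1.04 and -0.70).

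Aurkb, the Aurora B kinase of chromosome segregation, went with its list in Fisher but against it in Lewis and Brown Norway. In Fisher it was at 11.82 to 12.05 at PN1 and at 10.81 to 11.22 at PN7, a fall of 0.99 ± 0.16 (adjusted p = 1.03e-05). It also fell in Lewis (-0.96) and Brown Norway (-1.10), and the Fisher step differed from neither by an amount that was called (-0.03 ± 0.22 and 0.11 ± 0.22).

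Genes of DNA replication had the same order with smaller sizes. In Fisher 6 of 24 were lower and none higher (median -0.37, backgrounds 14.2% and 13.7%), and 1 of 24 was lower without PN7 c (background 9.19%). In Lewis and in Brown Norway 19 of the 24 were higher (backgrounds 14.4% and 19.8%) and none lower (backgrounds 14.5% and 19.2%). The difference was called for 18 of 24 against Lewis (background 7.03%) and 20 against Brown Norway (background 13.8%), each lower in Fisher. Without PN7 c it was called for 12 and 18 (backgrounds 3.30% and 9.24%). Pcna, the replication clamp, was at 13.55 to 13.63 at PN1 and at 12.98, 13.03 and 12.39 at PN7, a fall of 0.79 ± 0.19. It rose by 0.50 in Lewis. Prim1, the DNA primase subunit, was at 11.26 to 11.57 and then at 10.18 to 10.97, and was not called without PN7 c (adjusted p = 0.064). Against Fisher ovalbumin, no gene of replication and 1 of mitosis differed in its step (background 0.506% lower), and with PN7 c left out none of either list did. With slide as a term 8 of the 26 mitosis genes did, each lower, where 80 of the 14019 probes were lower.

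**Figure D4:**
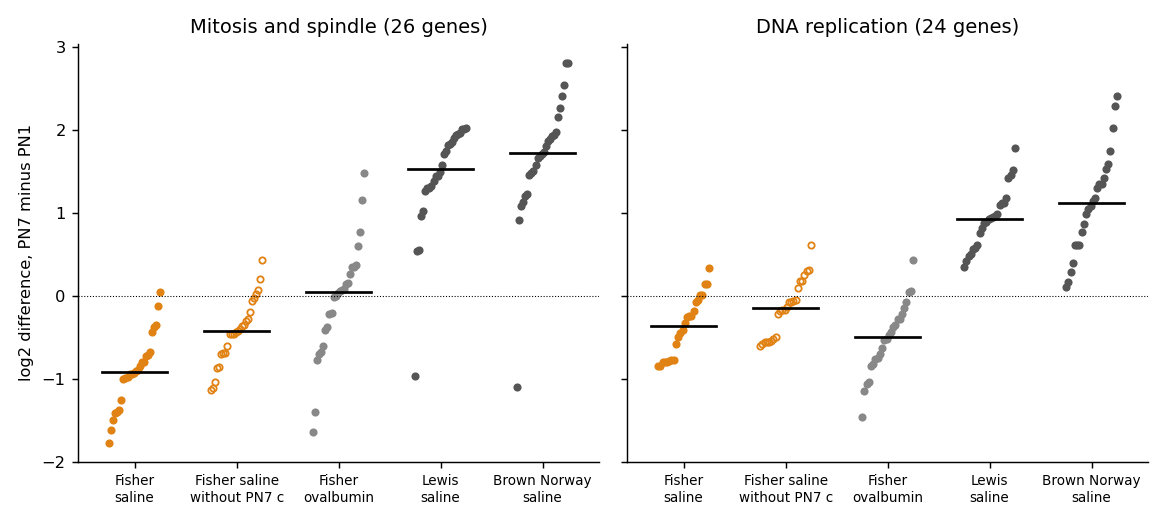
Log2 difference, PN7 minus PN1, of the 26 genes of mitosis (left) and 24 of DNA replication (right), 1 point a gene, with the median as a bar. The Fisher saline medians are -0.92 and -0.37, and the Lewis and Brown Norway medians of mitosis are 1.53 and 1.72.

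Cells of the blood and of immunity were described by marker lists. For these and every list below, the Fisher step has backgrounds of 13.7% higher and 14.2% lower. Without PN7 c they are 9.72% and 9.19%, and with slide as a term 13.3% and 15.5%. Of 14 measured erythroid genes 6 were higher and none lower (median 0.56, against 0.03 over all probes), and 5 higher and 1 lower without PN7 c. The 6 were Alas2, Gata1 (1.45), the erythroid transcription factor, Klf1, the membrane genes Epb42 (1.04) and Slc4a1 (1.21), and the beta-globin probe Hbb-b1 (1.57). Klf1, a further transcription factor of red cells, was not well above background on any PN1 array, and its PN7 level was at least 1.92-fold higher. Hbb-b1 was at 14.41, 12.29, 13.94 and 13.23 and then at 15.07, 14.99 and 15.05, with no overlap. Globin genes share much of their sequence, so their probes may read each other's transcripts. Hba-a1 and Hbb, both near the top of the scale, differed by 0.10 and 0.06 and were not called.

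Gata1 was highest on PN7 c, at 8.28 against 6.50 and 6.43 on a and b, and was not called without it (adjusted p = 0.088). The 1 gene lower without PN7 c was the embryonic globin Hbe1, detected on every PN1 array and not well above background on PN7 a and b. The mean level of the erythroid list was 7.94 to 8.79 at PN1 and 8.66, 8.73 and 9.44 at PN7, where the 2 ages overlapped.

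Of 13 macrophage genes 7 were higher and none lower (median 0.62), and 3 higher and 1 lower without PN7 c. Besides Alox15 and Lgals5, both also found in maturing red cells, the 3 subunits of complement C1q rose: C1qa by 0.74 ± 0.18, C1qb by 0.62 and C1qc by 0.67 ± 0.18. C1qa was at 9.05 to 9.24 and then at 9.84, 9.48 and 10.27, with no overlap, and stayed called without PN7 c, which C1qb and C1qc did not. Mrc1, the mannose receptor of macrophages, differed by -0.14 and was not called, and Marco, a scavenger receptor, was not well above background at either age.

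Of 8 genes of MHC class II, which presents peptides to helper T cells, 5 were higher and none lower (median 0.51). RT1-Db1 was at 9.91 to 10.01 on the PN1 arrays and at 11.53, 11.53 and 10.02 at PN7. Its rise of 1.07 ± 0.27 (adjusted p = 0.00215) was 1.58 without PN7 c, and PN7 c lay just above the PN1 arrays. RT1-Ba (0.80) and Cd74 (0.67), the invariant chain, also rose, and RT1-DMa (0.64) and RT1-DMb (0.34) rose only with PN7 c included. Of 18 interferon-induced genes 8 were higher and none lower (median 0.47), among them Psmb8 (1.06 ± 0.31) and Psmb10 (0.72 ± 0.18), subunits of the immunoproteasome, and 6 were without PN7 c. In the fit with slide 4 of the 18 were called. Without PN1 a, PN1 d and PN7 c, and with no slide term, none was called, on fewer arrays, and the median was 0.43.

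Of 12 neutrophil genes none was higher and 5 lower (median -0.11). The defensin gene RatNP-3b was at 11.71, 10.78, 10.46 and 9.99 at PN1 and at 7.40, 7.91 and 10.36 at PN7. PN7 c lay within the PN1 range, as it did for Defa5 and Np4. RatNP-3b fell by 2.18 ± 0.61 (adjusted p = 0.00559), and by 3.08 without PN7 c. With slide as a term none of the 12 was called, and the RatNP-3b difference was -0.48. Defensin genes are close copies, so probes may read more than 1 of them. Of 13 genes of T and NK cells and 3 of B cells none was called, and 2 of the 3 B cell genes were undetected at both ages.

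Of 24 chemokines and cytokines 2 were higher and 6 lower (median -0.15), and 2 and 4 without PN7 c. The 2 were Ccl19 and Ccl21 (0.75 ± 0.20), both ligands of Ccr7. Besides Cxcl1 and Ccl20, the falls were of Ccl2 (-0.83), which draws monocytes, Il18 (-0.84), Ccl6 (-0.83) and Cxcl2, which was not well above background on any PN7 array and on 2 of the PN1 arrays. Il18 was at 8.50 to 8.63 and then at 7.68 to 7.74 and fell by a like amount without PN7 c (-0.85). Ccl6 fell only with PN7 c, where it was at 9.12, but its step was below that of Lewis by -2.33 ± 0.29 (adjusted p = 8.32e-08) and by -1.93 without that array.

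Of 13 endothelial genes 7 were higher and none lower (median 0.41), and the other 6 were not called. Without PN7 c 8 were higher, and with slide as a term 4. Plvap, which forms the diaphragms of capillary pores, was at 13.82, 13.91, 13.93 and 13.80 at PN1 and at 14.86, 14.91 and 14.56 at PN7, a rise of 0.91 ± 0.12 (adjusted p = 1.13e-07). Icam2, an adhesion molecule of the endothelium, was at 11.76 to 12.05 and then at 12.41 to 12.66, a rise of 0.71 ± 0.13. Neither gene overlapped between the ages.

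Vwf, von Willebrand factor, was at 11.78, 12.20, 11.72 and 12.08 and then at 13.45, 13.45 and 11.95. PN7 c lay among the PN1 arrays, and the rise was 1.00 ± 0.20 with it. Tie1, a receptor of vessels, rose by 0.48 ± 0.14, with Flt1, Esam and Cldn5 rising by 0.46, 0.41 and 0.28, and these last 3 were not called with slide as a term. Plvap and Icam2 also rose in Lewis (0.55 and 0.50) and Brown Norway (0.54 and 0.62), and neither step differed from the Fisher one by an amount that was called. Dll4, the Notch ligand of growing vessels, was at 5.87 to 7.27 and then at 7.61 to 8.09, a rise of 1.04 ± 0.21. Its step exceeded that of the Fisher ovalbumin arrays by 1.39 ± 0.29 (adjusted p = 0.00482), and by 1.24 without PN7 c (adjusted p = 0.0709).

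Of 16 genes of elastic fibre assembly 5 were higher and 1 lower (median 0.40), and 7 and 1 without PN7 c. In the fit with slide 3 were higher and none lower. Mfap5, a microfibril protein, was at 9.37 to 10.04 and then at 10.46 to 10.60, a rise of 0.90 ± 0.19, and Loxl1, which cross-links elastin, was at 12.29 to 12.69 and then at 13.28 to 13.43, a rise of 0.83 ± 0.16. Eln, elastin itself, was at 13.57, 13.65, 13.45 and 14.32 and then at 14.51, 14.51 and 14.16. The groups overlapped through PN1 d and PN7 c, and the rise was 0.64 ± 0.22 (adjusted p = 0.0238). The Eln step was above that of Lewis by 0.97 (adjusted p = 0.023), and its difference from Brown Norway was 0.15.

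Of 18 collagen and matrix genes 4 were higher and 2 lower (median 0.04, backgrounds 13.7% and 14.2%). Without PN7 c 6 were higher and none lower (backgrounds 9.72% and 9.19%). The fit with slide gave 4 higher and 5 lower (backgrounds 13.3% and 15.5%). Col6a1, a chain of beaded microfibrils, rose by 0.71 ± 0.15, Col5a1, a chain that starts collagen fibrils, by 0.78 ± 0.19 and fibronectin Fn1 by 0.49 ± 0.12, each with no overlap. Postn, periostin, was at 13.22 to 13.55 and then at 13.01, 13.14 and 12.12. It fell by 0.67 ± 0.17, and its difference was -0.35 without PN7 c (adjusted p = 0.15). Of 10 smooth muscle and myofibroblast genes none was called, and 2 were higher without PN7 c. Acta2 and Pecam1, named among the genes to report, have no tested probe with a single symbol.

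**Figure D5:**
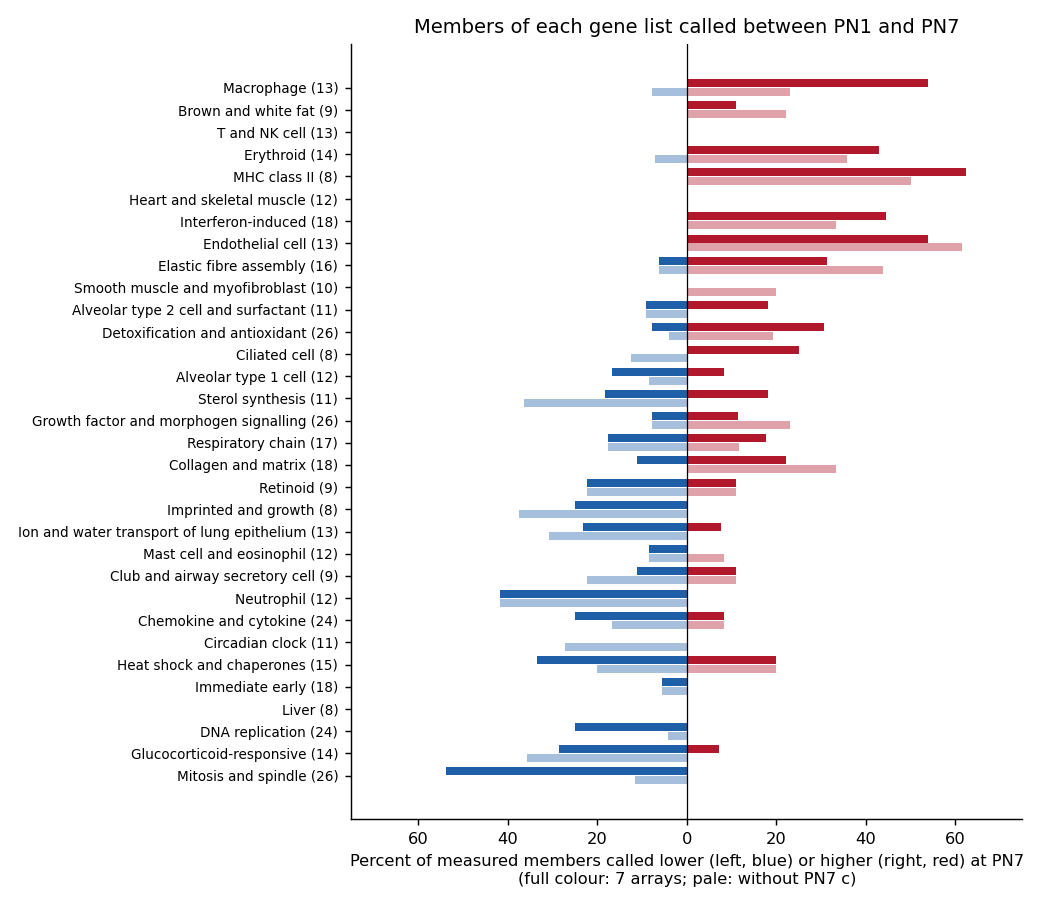
Percent of the measured members (number in brackets) of each gene list called lower (blue, left) or higher (red, right) at PN7, with all 7 arrays (full colour) and without PN7 c (pale); lists are ordered by median difference. Mitosis has 14 of 26 lower with PN7 c and 3 without it, and the endothelial list 7 of 13 higher with and 8 without.

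Among epithelial genes, some were called in each direction, and Sftpc, Scgb1a1 and Ager were not. Sftpc differed by 0.24 ± 0.13 (adjusted p = 0.158), Scgb1a1 by -0.11 ± 0.08 (adjusted p = 0.326) and Ager, the receptor that marks type 1 cells, by 0.30 ± 0.17 (adjusted p = 0.188). Of 11 type 2 cell genes 2 were higher and 1 lower, and without PN7 c none was higher and 1 lower. The fit with slide gave 6 of the 11 higher and none lower (median 0.58). The lower gene, Lamp3, a protein of lamellar bodies, was at 11.89 to 12.41 and then at 11.41, 11.43 and 12.14, a fall of 0.54 ± 0.17 that was not called with slide as a term (adjusted p = 0.18). The mean of the list was 11.92 and 11.94 on PN7 a and b, 12.70 on PN7 c and 11.93 to 12.07 at PN1.

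Hopx, a homeodomain protein of type 1 cells, was at 14.42 to 14.58 and then at 13.58, 13.65 and 14.22, with no overlap, and fell by 0.68 ± 0.14 (adjusted p = 0.000243). Aqp5, the water channel of type 1 cells, was at 8.28, 9.20, 9.38 and 9.26 and then at 9.75, 9.80 and 10.22. Its rise of 0.90 ± 0.27 was not called without PN7 c (adjusted p = 0.075). Scgb3a2, an airway secretoglobin, was at 12.88 to 13.13 and then at 12.15 to 12.55, and fell by 0.71 ± 0.12 (adjusted p = 1.18e-05). It fell in Lewis (-0.47) and Brown Norway (-0.73) as well.

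Of 13 genes of ion and water transport 1 was higher and 3 lower, and none and 4 without PN7 c. Aqp4, a basolateral water channel, fell by 0.89 ± 0.27 and Scnn1g, a subunit of the epithelial sodium channel, by 0.52 ± 0.15, both with no overlap. Atp1b1, a sodium pump subunit, was at 12.26 to 12.97 and then at 10.95, 10.96 and 12.63, a fall of 0.95 ± 0.25, and of 1.51 without PN7 c, which was not called with slide as a term (adjusted p = 0.17). Both ciliated genes called with all arrays, Tekt1 (0.65) and Tekt4 (0.61), were not called without PN7 c, where they were at 10.79 and 10.88.

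Among genes that guide growth, Igf2, insulin-like growth factor 2, was at 14.18, 13.89, 13.78 and 14.64 and then at 12.95, 12.35 and 14.00. PN7 c lay within the PN1 range, and the fall was 1.03 ± 0.29 (adjusted p = 0.00525), or 1.47 without it. With slide as a term the difference was -0.37 and was not called (adjusted p = 0.35). Igf2 also fell in Lewis (-1.32) and Brown Norway (-1.68). Fgfr2, the receptor that carries branching signals, fell by 0.54 ± 0.15, and Rarb, a retinoic acid receptor, by 0.68 ± 0.15 from 12.24 to 12.69 to 11.51 to 12.10.

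Of 26 detoxification and antioxidant genes 8 were higher and 2 lower (median 0.25). Without PN7 c 5 were higher and 1 lower (median 0.076), and with slide as a term 12 and 1. Sod3, the extracellular superoxide dismutase, was at 9.37, 9.42, 9.23 and 9.39 and then at 11.31, 11.31 and 9.93. It rose 2.82-fold (adjusted p = 1.2e-05) with no overlap, by 1.43 on the log2 scale in Lewis, and was also called higher in Brown Norway. Gstp1, a glutathione transferase, was at 12.08 to 12.19 and then at 12.81 to 13.02, a rise of 0.80 ± 0.16.

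Of 14 glucocorticoid-responsive genes 1 was higher and 4 lower (median -0.55), and 5 were lower without PN7 c. The fit with slide gave 1 higher and none lower, and neither Dusp1 nor Pdk4 was called in it. Dusp1, a phosphatase that switches off MAP kinases, was at 13.56 to 13.86 and then at 12.30, 12.65 and 13.35, a fall of 0.92 ± 0.29. Pdk4, which turns down glucose oxidation, was at 8.93, 7.33, 8.28 and 7.00 and then at 6.54 to 6.66, a fall of 1.29 ± 0.39. The mean of the list was highest on PN1 a (11.43, against 10.10 to 10.50 on the other PN1 arrays), the array with high liver genes. With PN1 a and d and PN7 c left out 1 of the 14 was lower. The list's step was above that of Brown Norway for 10 genes and below for 1 (backgrounds 13.1% and 13.8%).

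Of 15 heat shock and chaperone genes 3 were higher and 5 lower, and 3 and 3 without PN7 c. Bag3, a co-chaperone, rose by 0.73 ± 0.14, and Hspd1, the mitochondrial chaperonin, was at 13.08 to 13.36 and then at 12.64 to 12.83, a fall of 0.47 ± 0.10. Of 17 respiratory chain genes 3 were higher, among them Uqcrc1 (0.66 ± 0.14) and Ndufv1 (0.57 ± 0.14), and 3 lower, among them Cycs, cytochrome c (-0.59 ± 0.17). Both counts lie near the backgrounds of 13.7% and 14.2%. Of 11 genes of sterol synthesis 2 were higher and 2 lower with PN7 c, and none higher and 4 lower without it. Idi1, an isomerase of that pathway, was at 10.04 to 10.24 at PN1 and at 8.87, 8.74 and 10.22 at PN7. All 11 were lower in Fisher ovalbumin lung (background 16.5%), 7 in Lewis (14.5%) and 8 in Brown Norway (19.2%). The saline step was above the ovalbumin step for 6 and below for none (backgrounds 0.870% and 0.506%). The list's mean was 8.79, 8.60 and 9.96 on PN7 saline a to c. Without PN7 c, 8 of all 14019 probes differed between these 2 steps. Among 11 genes of the circadian clock none was called, and 3 were lower without PN7 c. Among 26 growth factor and morphogen genes 3 were higher and 2 lower, no more than the backgrounds of 13.7% and 14.2%. Without PN7 c 6 were higher and 2 lower (backgrounds 9.72% and 9.19%).

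The Fisher step was tested against each other step over all probes. It differed from the Lewis step for 1980 probes (14.1%; 994 higher, 7.09%, and 986 lower, 7.03%) and from the Brown Norway step for 3774 (26.9%; 1837 higher, 1937 lower). Without PN7 c the counts were 970 against Lewis (6.92%; 3.62% higher, 3.30% lower) and 2525 against Brown Norway (8.77% higher, 9.24% lower). No array is shared between these steps. The lowest differences were mostly of cell division: Nusap1, a spindle protein, was lower by -3.58 ± 0.64 against Lewis and by -4.42 ± 0.64 against Brown Norway, and by -2.82 and -3.66 without PN7 c. Ccna2, cyclin A2, was lower by -3.23 and -4.20, and by -2.52 and -3.49 without it.

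Il1a differed without leaning on PN7 c. Its mean was 9.29 ± 0.24 (SD, n = 4) and then 7.05 ± 0.04 (n = 3) in Fisher, and 7.58 ± 0.21 and then 9.10 ± 0.88 (n = 4 each) in Lewis. The Fisher step was below the Lewis step by -3.76 ± 0.49 (adjusted p = 2.57e-07), and by -3.74 without PN7 c. It was below the Brown Norway step by -2.71 (adjusted p = 2.7e-05), and its difference from the Fisher ovalbumin step was -0.33 (adjusted p = 0.815). Apoe went the other way, with a Fisher step above that of Lewis by 2.33 ± 0.39 and of Brown Norway by 2.93 ± 0.39. Its Fisher PN1 mean of 10.43 ± 0.70 was below the Lewis (12.15 ± 0.16) and Brown Norway (12.08 ± 0.31) PN1 means, and the difference was as large with PN1 a, PN1 d and PN7 c left out (2.58 and 3.18).

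The highest differences from Lewis were of Mup5, Mup4, Mup4l4 and Mup4l3, major urinary proteins that carry pheromones, and of Obp3, an odorant-binding relative (2.94 to 4.49). Mup5 was at a mean of 10.30 ± 0.20 in Lewis at PN1 and fell by 4.30 by PN7, and in Fisher it was at 5.85 to 6.45 and then at 5.75, 4.96 and 8.60. The fall was in Lewis, PN7 c was the highest Fisher array, and the difference was 3.41 without PN7 c. These genes are close copies whose probes may read each other. Against Brown Norway the highest was Cbs, cystathionine beta-synthase (5.36), which fell by 4.63 in Brown Norway and differed by 0.72 in Fisher (adjusted p = 0.285).

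The saline and ovalbumin steps of Fisher differed for 193 probes (1.38%; 122 higher, 0.870%, and 71 lower, 0.506%), and for 8 without PN7 c (0.0571%; 0.0214% higher, 0.0357% lower). Cpa4, a carboxypeptidase, had the highest difference, 3.84 ± 0.60 (adjusted p = 0.000109). It was at 6.67, 6.04, 5.80 and 6.80 at PN1 and at 5.33, 5.47 and 9.83 at PN7 after saline, and at a mean of 8.69 ± 0.77 and then 5.40 ± 0.25 after ovalbumin. Cpa4 was not well above background on PN7 saline a and b or on any PN7 ovalbumin array, so these differences are not exact. Of the 10 genes named for this comparison Cpa4 alone was called without PN7 c (adjusted p = 0.000235).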

How the data were processed

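RNA from whole lung was labelled with biotin and hybridised to Illumina bead arrays, per the labels' protocols. The deposited table holds the raw mean bead intensity and the detection p-value of each probe and array, per the file headers. A deposited table of log2 values came from lumi per the submitters' processing notes, and equals the quantile-normalized log2 raw signal; it served as an alternative.

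Raw intensities were background corrected, quantile normalized and put on the log2 scale with neqc (limma 3.58.1, R 4.3.3, offset 16, detection p-values in place of control beads). Probes with a detection p under 0.01 on at least 3 of 71 arrays were tested with lmFit and eBayes (trend), a mean for each of 18 groups and 53 residual degrees of freedom. Contrasts gave the Fisher PN7 minus PN1 step and its difference from the Lewis, Brown Norway and Fisher ovalbumin steps. P-values were adjusted by Benjamini-Hochberg over 14019 probes. The number of arrays limits the precision.

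Symbols came from the platform annotation, updated through RefSeq; a gene is its probe of highest mean. Named were the 12 largest rises and falls with no overlap of arrays, the 5 highest and lowest differences per step comparison, up to 4 members per list and 6 fixed genes; other list members in the text were chosen after their values were seen. The members and lists were chosen with earlier results of these data known. The letters a to d were not taken to pair arrays. The correlation of deviations was -0.065, 0.313 and -0.118 for like letters a to c, and -0.251 to 0.214 for unlike letters. Deviations from the same group mean depend on each other, so these values cannot settle whether the letters pair arrays. The test was tried on simulated data. Two-sided tests were used throughout. Alternatives included the authors' values, other scaling, filters, slide terms, array weights and arrays left out.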

Additional observations from a re-analysis of the deposited data

Results flagged for a closer look

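Within the 4 Fisher PN1 saline arrays, 1 value stood far from the other 3 in 3 of 51 sets looked at, and chance gives about 1 in 20. PN1 a had the lowest developmental index (0.245) and the lowest level of Cxcr1, an interleukin-8 receptor (5.24), and the highest level of Hemgn, an erythroid nuclear protein (7.91).

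The Fisher step differed from the Lewis step for 1980 probes. The highest differences were of Mup5 (4.49), Mup4 (4.35), Mup4l4 (4.25), Mup4l3 (3.41) and Obp3 (2.94), and the lowest of Il1a (-3.76), Nusap1 (-3.58), Pbk (-3.37), Kif11 (-3.26) and Ccna2 (-3.23), all on the log2 scale. From the Brown Norway step it differed for 3774 probes, highest for Cbs (5.36), Trim54 (4.16), Mlc1 (3.95), Esm1 (3.53) and Prg4 (3.34), and lowest for Nusap1 (-4.42), Pbk (-4.32), Pclaf (-4.21), Ccna2 (-4.20) and Fam111a (-3.76).

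From the Fisher ovalbumin step it differed for 193 probes. The highest were Cpa4 (3.84), Mup4 (2.63), Mup5 (2.35), Mup4l4 (2.27) and Slc39a4 (2.06), and the lowest Dhrs7c (-2.41), Txlnb (-2.26), Cxcr1 (-2.21), Asb11 (-2.09) and Hemgn (-1.95). Slc39a4, a zinc transporter, was at 9.43 to 9.81 at PN1 and at 9.65, 9.62 and 12.35 on PN7 a to c. Without PN7 c, Cpa4 alone of these 10 stayed called. Dhrs7c, Txlnb and Asb11, genes of striated muscle, were at -2.07, -1.89 and -1.87 without it. Of 12 heart and skeletal muscle genes 7 were called higher in the Fisher ovalbumin step (median 1.89), with PN7 ovalbumin arrays at a mean of 9.57 to 12.18, and their part in these differences was not tested. Cpa4 and Mup4l4 were not well above background on any PN7 ovalbumin array, nor Mup4 and Mup4l4 on any PN1 saline array, so these values are not exact.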

How the results depend on the processing

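The Fisher step from PN1 to PN7 gave 3018 called probes with the compared groups alone and 6948 with array weights. It gave 2231 without PN1 a and PN7 c, and 1576 without PN1 a and d and PN7 c, a choice made after seeing the data. Its difference from the Lewis step gave 750 with the compared groups alone, 4315 with array weights, and 826 and 619 with those arrays left out. Against Brown Norway the counts were 2482 with the compared groups alone, 5925 with array weights and 2258 with all 3 arrays out. Against Fisher ovalbumin they were 0 with the compared groups alone (limma; 1457 at an unadjusted p under 0.05), 1052 with array weights, and 8 and 5 with arrays out. Scaling to the 75th percentile moved the split of higher and lower calls to 1395 and 2438 against Brown Norway and to 90 and 87 against ovalbumin.

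Leaving out 1 array at a time gave 2650 to 3609 calls for the step, 970 to 2556 against Lewis, 2525 to 3925 against Brown Norway and 8 to 352 against ovalbumin. The lowest of each came without PN7 c, and against ovalbumin the count was also moved by PN7 saline b (352), PN1 saline a (85), PN1 ovalbumin b (105) and PN7 ovalbumin d (105). With the replicate letter as a block in the compared groups, which pairs arrays by letter alone, the counts were 1585, 1059, 2316 and 0 (1330 at an unadjusted p under 0.05). Among named genes, 2524 of the values under alternatives kept their side of the threshold and 352 lost the call. Among values called in either fit 1 changed sign: Defa5 was at 0.11 with slide as a fixed term. Any sign change of a value called in neither fit is held in the 2524. The cause of these changes was not tested. No slide holds Fisher saline arrays of both ages, so for them slide and age are separated only through the other groups, of which slides 2 and 3 hold both ages.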
